A study of Mus musculus with 36 samples.

Results

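The genes described here encode the Sm, LSm and SF3 proteins and the PRPF factors of the spliceosome in the mouse mesenteric lymph node. Members were all probe sets whose single annotated symbol begins with Snrp, with Lsm followed by a digit, or with Sf3a, Sf3b or Prpf. This took in 103 of the 45137 probe sets besides controls, 70 on the Affymetrix array named here array A and 33 on a second array with other probe sets, array B. They stand for 42 of the 18194 genes with a single symbol: 6 proteins of the Sm ring, 3 other Snrp proteins, 12 Lsm, 3 Sf3a, 6 Sf3b and 12 Prpf genes. A filter on dim probe sets left 79 members to test, 54 on array A and 25 on array B, with at least 1 for each of the 42 genes. The 24 probe sets left untested had group means between 11 and 276 (array A) or between 11.9 and 149 (array B). A further 8 (array A) and 2 (array B) carry a member symbol among several symbols and were left out.

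Mice had received phosphate-buffered saline (PBS, taken as day 0) or a soluble lymphotoxin-beta receptor for 1, 2, 3, 27 or 35 days. The soluble receptor, named as an Ig fusion in the series title, binds the ligands of the lymphotoxin-beta receptor and so withholds them from stromal cells. Each of the 6 groups has 3 samples on each array, 36 measurements in all, and the labels do not say whether the 3 are separate mice, so p-values measure only sample spread, which may be technical. Strain, genotype, age, dose and schedule are not given, and with saline only at day 0, time and treatment cannot be told apart. Lymphocyte genes read as a node should: over the 18 A arrays Cd3e, a T cell receptor chain, read 1746 to 2239 and Cd79a, a B cell receptor chain, read 2405 to 3772, with a table median near 287. Median intensity was 273 to 299.5 over the A arrays and 149.9 to 165 over the B arrays. On array A the third sample of day 3, the second of day 27 and the third of day 35 stood apart, with estimated array weights of 0.277, 0.243 and 0.301 against 0.578 to 2.41 in the others. The same samples had weights of 0.559, 1.04 and 0.948 on array B, where the third of day 1 (0.339) and the first of day 27 (0.452) were lowest.

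The spliceosome removes introns from pre-messenger RNA and is built from small nuclear ribonucleoproteins (snRNPs), each a small nuclear RNA with its proteins. Sm proteins close into a ring around the U1, U2, U4 and U5 RNAs, and LSm proteins form a related ring on the U6 RNA. SF3a and SF3b complete the U2 particle at the intron's branch site, and the PRPF proteins hold together and remodel the U4/U6 and U5 particles and the catalytic core. All nucleated cells make these proteins, lymphocytes included.

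Promoters are printed for 4 members of the small-protein rings that fell and for Sf3b1, a large factor with no call, picked with their values known. The sequences are RefSeq's for GRCm38.p6, from 250 bases before to 50 after the annotated start, read on the gene's strand. Capitals mark every match, on either strand, to any of 11 motifs searched.
Snrpe (chr1:133610231-133610530, minus strand): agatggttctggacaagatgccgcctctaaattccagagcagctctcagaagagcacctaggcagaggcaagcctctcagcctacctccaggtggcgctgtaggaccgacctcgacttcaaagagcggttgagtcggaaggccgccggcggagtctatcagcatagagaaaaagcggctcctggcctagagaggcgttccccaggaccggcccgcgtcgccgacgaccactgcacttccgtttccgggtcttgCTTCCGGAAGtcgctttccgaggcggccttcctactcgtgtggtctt
Snrpf (chr10:93589609-93589908, minus strand): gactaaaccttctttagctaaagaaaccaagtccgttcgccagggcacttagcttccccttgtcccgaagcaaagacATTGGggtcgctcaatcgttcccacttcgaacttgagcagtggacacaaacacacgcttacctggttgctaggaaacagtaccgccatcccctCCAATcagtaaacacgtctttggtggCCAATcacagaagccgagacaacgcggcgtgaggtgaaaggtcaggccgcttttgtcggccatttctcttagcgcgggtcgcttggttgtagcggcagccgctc
Snrpg (chr6:86371290-86371589, plus strand): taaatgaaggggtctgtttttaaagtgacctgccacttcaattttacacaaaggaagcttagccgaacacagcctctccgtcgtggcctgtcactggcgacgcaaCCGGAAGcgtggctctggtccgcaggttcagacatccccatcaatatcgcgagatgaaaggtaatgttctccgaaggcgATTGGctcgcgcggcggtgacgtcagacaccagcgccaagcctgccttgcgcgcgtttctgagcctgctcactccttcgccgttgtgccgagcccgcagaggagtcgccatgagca
Lsm6 (chr8:78821103-78821402, minus strand): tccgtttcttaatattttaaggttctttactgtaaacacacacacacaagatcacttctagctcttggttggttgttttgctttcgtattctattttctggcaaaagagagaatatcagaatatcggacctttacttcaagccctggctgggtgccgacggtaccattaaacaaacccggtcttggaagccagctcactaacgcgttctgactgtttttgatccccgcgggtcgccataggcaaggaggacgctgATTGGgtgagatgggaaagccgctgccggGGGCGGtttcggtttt
Sf3b1 (chr1:55027429-55027728, minus strand): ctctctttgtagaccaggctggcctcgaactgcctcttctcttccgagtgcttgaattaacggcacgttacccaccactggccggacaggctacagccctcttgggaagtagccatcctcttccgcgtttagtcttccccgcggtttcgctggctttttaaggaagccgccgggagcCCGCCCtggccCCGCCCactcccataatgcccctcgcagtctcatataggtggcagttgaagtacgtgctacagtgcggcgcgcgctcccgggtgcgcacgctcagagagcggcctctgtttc
Snrpe holds a pair of overlapping matches to the ETS core CCGGAAG, and Snrpg holds 1. The CCAAT box stands 3 times in Snrpf and once each in Snrpg and Lsm6, while the GC box GGGCGG is found in Lsm6 and, as a pair, in Sf3b1. Of the 42 members, 35 matched a promoter. The first listed promoter of each gene was used. Members on 1 chromosome were not matched, though its promoters stay among all promoters, so the 2 sets differ in that respect. CCGGAAG was present in 13 of the 35 (37.1%) against 9.12% of all 27025 promoters, and those 13 include Snrpe, Snrpg, Snrpb2, Snrpc, Sf3a1, Sf3a2, Sf3a3, Sf3b2, Sf3b3, Sf3b6, Prpf4b, Prpf6 and Prpf19. GGGCGG was present in 60.0% of member promoters against 35.9%, CCAAT in 45.7% against 37.9%, and the TATA box letters TATAAA in 2.86% (Sf3b3) against 14.2%. The other 7 were rarer. Member and overall shares were 8.57% and 0.899% for a YY1 motif, 8.57% and 7.24% for the E box CACGTG, 2.86% and 0.318% for the E2F-like TTTCGCGC, and 2.86% and 0.718% for CTCGCGAGA. No member promoter held either of 2 overlapping phasings of the NRF1 palindrome or a ZNF143 core, found in 0.977%, 1.05% and 0.307% of all promoters. The ETS core lies in the promoters of members that fell and of members with no call, and of the 7 genes with a lower call at day 35 and a promoter, 4 held it, 5 held the CCAAT box and 3 the GC box.

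On days 1, 2 and 3 no member was called on either array. Calls are at an adjusted p under 0.05 from limma, a linear model with a shared estimate of spread, with Benjamini-Hochberg adjustment over all tested probe sets of an array and two-sided tests. Over all tested probe sets 0.0164%, 0.114% and 0.556% were called on array A and 0.00799%, 0.024% and 0.0799% on array B on those days, so few calls were made of any gene. At an unadjusted p under 0.05, 2, 1 and 4 members of 54 on array A and 2, 0 and 3 of 25 on array B were reached. That is 3.7%, 1.85% and 7.41% of members on array A against 3.36%, 5.52% and 10.1% of all tested probe sets, and 8%, 0% and 12% on array B against 7.19%, 7.06% and 8.28%, shares near the background with so few members. The smallest unadjusted p at day 3 was that of Lsm6, at -0.42 (log2, SE 0.12, adjusted p = 0.415 by limma), followed by Snrpf at -0.58 (SE 0.21, adjusted p = 0.507).

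Calls appeared late and were nearly all falls. At day 27, 3 of 54 members on array A (5.56%, all lower, against 3.18% of all tested probe sets called and 2.6% lower) and 1 of 25 on array B (4%, against 0.328%) were called. Without the second day 27 sample these counts were 6 and 4, and the array B count was 0 without any 1 of the day 0 samples or the third day 27 sample. At day 35 the counts were 7 of 54 on array A (13.0%, against 7.36%) and 6 of 25 on array B (24%, against 3.59%). Of these, 6 on each array were lower, where lower calls made up 5.58% and 2.88% of all tested probe sets, and 1 on array A was higher, against 1.77%. The array A split was 11 lower and 0 higher with every array set to a common median. Its count fell to 3 without the third day 0 sample and to 2 without the second day 35 sample, and the array B count to 3 without the second day 0 sample. By gene, 4 of 42 had a lower call at day 27 and 9 at day 35, namely Snrpb, Snrpe, Snrpf, Snrpg, Lsm2, Lsm6, Sf3b5, Sf3b6 and Prpf19, with Sf3a2 the 1 gene with a higher call. These are RNA levels in whole tissue, in which fewer cells of a type and less RNA per cell cannot be told apart, and all day comparisons share the same 3 day 0 samples.

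In the Sm ring Snrpf, Snrpe and Snrpg fell, Snrpf by the most of all members. Snrpf encodes the Sm F protein, which joins the ring as part of the E, F and G trimer. On array B its probe set 1428672_at read 1238, 1208 and 1162 at day 0, 1261, 1269 and 1131 at day 1, and 1321, 1187 and 1070 at day 2. Day 3 gave 1082, 852 and 564, day 27 gave 696, 857 and 424, and day 35 gave 519, 447 and 432. All 9 samples of days 3, 27 and 35 lay below all 3 of day 0, with the widest spread at days 3 and 27 and the narrowest of those days at day 35. The change was -0.93 at day 27 (log2, SE 0.21, n = 3 a group, adjusted p = 0.074 by limma), which did not pass, and -1.37 at day 35 (SE 0.21, adjusted p = 0.00147), which passed under every alternative setting and with each sample left out.

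Snrpe encodes Sm E. Its probe set 1451294_s_at on array A read 1278, 1484 and 1462 at day 0, and 1580, 1678 and 1517 at day 1. Day 2 gave 1374, 1403 and 1510, and day 3 gave 1351, 1433 and 1008. Day 27 gave 906, 1065 and 879, and day 35 gave 1036, 923 and 938. Late and day 0 samples did not overlap, and the third sample of day 3 lay within the late range while the other 2 lay within the day 0 range. Snrpe fell by 0.57 at day 27 (log2, SE 0.11, adjusted p = 0.00729 by limma) and by 0.54 at day 35 (SE 0.11, adjusted p = 0.00553), and both calls were kept under every alternative in which the probe set was tested.

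Snrpg encodes Sm G and has 2 tested probe sets on array A. The first, 1448358_s_at, read 1506, 1680 and 1658 at day 0, 1679, 1835 and 1449 at day 1, and 1689, 1650 and 1587 at day 2. Day 3 gave 1561, 1604 and 1175, day 27 gave 1080, 1119 and 1013, and day 35 gave 1131, 1024 and 1037. As for Snrpe, the late samples lay apart from day 0 and the third day 3 sample lay low. It fell by 0.59 at day 27 (log2, SE 0.10, adjusted p = 0.00378 by limma) and by 0.60 at day 35 (SE 0.10, adjusted p = 0.00224), in all such alternatives. The second probe set, 1448357_at, read 991, 1028 and 1028 at day 0, 754, 1002 and 741 at day 27, and 816, 707 and 745 at day 35, so the second sample of day 27 alone among the late samples lay inside the day 0 range. Its change was -0.30 at day 27 (SE 0.11, adjusted p = 0.157) and -0.43 at day 35 (adjusted p = 0.0263). The day 35 call ended with no filter on dim probe sets, and without any 1 of the 3 day 0 samples or the second or the third sample of day 35.

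The other Sm ring genes moved less. Snrpb encodes Sm B, the partner of Sm D3. On array B its probe set 1437193_s_at read 1246, 1416 and 1159 at day 0, 1263, 1257 and 1087 at day 27, and 1014, 1056 and 963 at day 35. Only the day 35 samples lay wholly below day 0. The change at day 35 was -0.33 (log2, SE 0.09, adjusted p = 0.0469 by limma). The call ended under quantile scaling (adjusted p = 0.314), without the 3 samples that stood apart on array A, without the first or the second day 0 sample, and without any 1 of the 3 day 35 samples. On array A the Snrpb probe set 1419260_a_at stood at -0.10 at day 35 (adjusted p = 0.381). Snrpd3, the Sm D3 gene, had 2 probe sets at -0.09 and 0.09, and Snrpn, a close relative of Sm B best known from brain, stood at 0.13 at day 35, with no call.

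None of the 3 genes for proteins specific to the U1 and U2 particles was called against day 0. Snrpc, of U1, stood at -0.09 on array A and -0.19 on array B at day 35 (log2). Snrpa1 and Snrpb2, which pair in U2, stood at -0.16 (SE 0.09) and, over 2 Snrpb2 probe sets, at -0.30 and -0.22. All 4 array A probe sets of these genes lay below 0 at day 35, as did 5138 of all 12230 tested there. The median of these 4, of which 2 are of Snrpb2, was -0.19 against 0.03 over all tested probe sets. The Snrpa1 probe set among them exceeded the table median on 3 of 18 arrays, none of them late. It thus passed the filter on dim probe sets through the earlier groups alone.

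**Figure D1:**
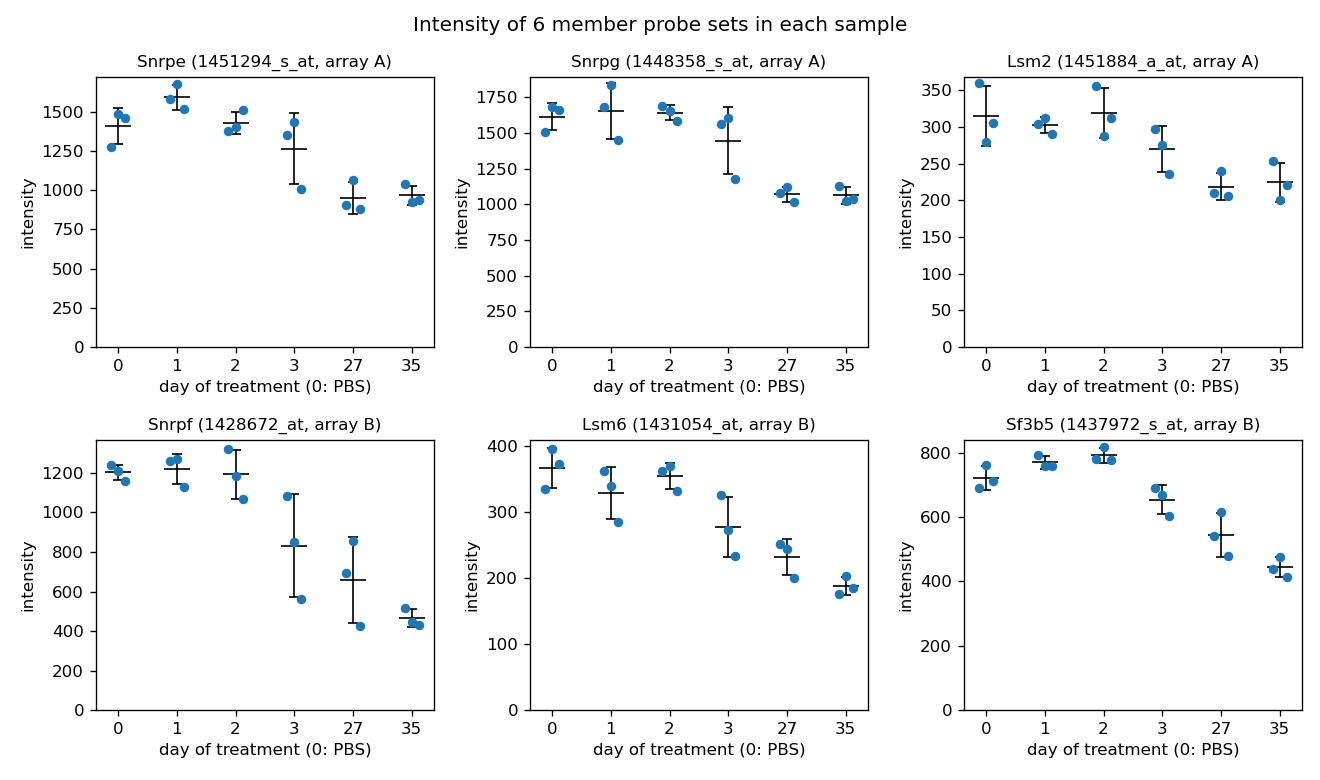
Intensity of 6 member probe sets in each sample by day of treatment, with dots for samples, the long bar for the mean and whiskers for the SD (n = 3). The genes were picked with their values known, each shown by its probe set with the smallest limma p at day 35. That every day 35 sample lies below every day 0 sample in all 6 is thus partly due to that choice. The share of all tested probe sets without such overlap was not counted. The day 0 samples of Lsm2 were the most spread for their level.

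Among the LSm genes, Lsm6 and Lsm2 fell. Lsm6, a subunit of both the nuclear U6 ring and the cytoplasmic ring that promotes decapping of messages, has 2 tested probe sets on array B. The first, 1431054_at, read 335, 395 and 372 at day 0, 362, 340 and 285 at day 1, and 362, 371 and 333 at day 2. Day 3 gave 325, 274 and 233, day 27 gave 251, 244 and 201, and day 35 gave 176, 203 and 185. Every sample of days 3, 27 and 35 lay below day 0. Lsm6 fell by 0.67 at day 27 (log2, SE 0.12, adjusted p = 0.024 by limma) and by 0.97 at day 35 (SE 0.12, adjusted p = 0.000488). The day 35 call was kept in all alternatives that tested the probe set. The day 27 call ended with no filter, without any 1 of the 3 day 0 samples and without the third day 27 sample, with adjusted p up to 0.178.

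The second Lsm6 probe set, 1437109_s_at, read 444, 483 and 434 at day 0, 274, 414 and 302 at day 27, and 268, 295 and 292 at day 35. The late samples lay below day 0 here too. It fell by 0.67 at day 35 (log2, SE 0.13, adjusted p = 0.00741 by limma), a call that ended only without the second day 0 sample (adjusted p = 0.0547), and stood at -0.48 at day 27 (adjusted p = 0.148).

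Lsm2, also shared by both rings, read 360, 279 and 305 at day 0 on array A (1451884_a_at). Day 27 gave 210, 240 and 205, and day 35 gave 253, 201 and 220. Neither late group overlapped day 0, but the gap was small against the day 0 spread. The probe set exceeded the table median on 9 of 18 arrays, none of them late, so it passed the filter on dim probe sets through the earlier groups alone. With no filter the adjusted p was 0.0478 and 0.0440 for Lsm2 1451884_a_at array A at day 27 and day 35. The change was -0.52 at day 27 (log2, SE 0.12, adjusted p = 0.0171 by limma) and -0.49 at day 35 (adjusted p = 0.0148). Both calls ended when only the 2 groups compared were fitted, and without the first day 0 sample. The day 27 call also ended without the third day 0 sample or the first or the third day 27 sample, and the day 35 call without the second day 35 sample.

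The other LSm genes had no call against day 0. Of the small ring proteins, Lsm4 stood at -0.19 at day 35 (log2, adjusted p = 0.0918 by limma), Lsm8, the subunit that marks the nuclear ring, at -0.24 (adjusted p = 0.147), Lsm3 at -0.11 and Lsm7 at -0.05. Lsm1, which marks the cytoplasmic ring, stood at 0.19 on array B. Lsm10 and Lsm11 belong to the U7 particle that trims histone messages. Lsm10 stood at -0.27 (SE 0.08, adjusted p = 0.0537), and the 2 probe sets of Lsm11 at 0.03 and -0.01. Lsm14a, a longer protein of messenger RNA storage granules, had 3 probe sets between -0.25 and -0.01, Lsm14b stood at 0.09 and Lsm12 at 0.19.

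The SF3a and SF3b genes split by gene and by probe set. SF3b5 and SF3b6 are among the smallest subunits of SF3b, and SF3b6, also known as p14, lies against the branch point adenosine. On array B the Sf3b5 probe set 1437972_s_at read 690, 763 and 712 at day 0, 794, 760 and 757 at day 1, and 779, 819 and 778 at day 2. Day 3 gave 692, 668 and 604, day 27 gave 540, 615 and 478, and day 35 gave 440, 477 and 415. The late samples lay below day 0, and day 35 below every sample of the other days. Sf3b5 stood at -0.41 at day 27 (log2, SE 0.09, adjusted p = 0.0712 by limma) and fell by 0.70 at day 35 (SE 0.09, adjusted p = 0.000558), in all alternatives that tested it. Its array A probe set 1451185_at, however, stood at 0.06 and -0.19 (adjusted p = 0.143 at day 35).

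Sf3b6 has 3 tested probe sets on array A. 1417054_a_at read 775, 820 and 904 at day 0 and 630, 631 and 682 at day 35, a fall of 0.36 (log2, SE 0.08, adjusted p = 0.0113 by limma) that was no longer called without the third day 0 or the second day 35 sample. 1436681_x_at fell by 0.31 (SE 0.08, adjusted p = 0.022), a call that ended with only the 2 groups compared, without the second or the third day 0 sample, and without the second or the third day 35 sample. 1417055_at stood at 0.12 (SE 0.13, adjusted p = 0.627) and read 1161, 1182 and 1033 at day 0 against 1404, 1123 and 1143 at day 35. So 2 probe sets of Sf3b6 lay wholly below day 0 at day 35 and the third overlapped it.

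The large subunits gave no lower call. Sf3b1, the scaffold that holds the branch site helix, stood at 0.09 and 0.20 on array A and -0.29 on array B at day 35 (log2, smallest adjusted p = 0.28 by limma). Sf3b2 had 4 probe sets on array A from -0.07 to 0.28 and 2 on array B at -0.35 and -0.01. Sf3b3, a propeller-fold scaffold, stood at -0.04 on array A and -0.38 on array B, and Sf3b4 at -0.12 and -0.04 on array A. Sf3a1 stood at 0.13 on array A and at 0.15 and 0.18 on array B, and Sf3a3 at 0.16 and -0.03.

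Sf3a2 was the single higher call. Its probe set 1455546_s_at read 1211, 1219 and 1137 at day 0, 1355, 1237 and 1388 at day 27, and 1430, 1483 and 1475 at day 35, so both late groups lay above day 0. The rise at day 35 was 0.30 (log2, SE 0.07, adjusted p = 0.0169 by limma). It was no longer called with arrays set to a common median, without the third day 0 sample or without the second day 35 sample. The other Sf3a2 probe set, 1450576_a_at, stood at -0.10 (SE 0.12).

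Of the 12 Prpf genes, only Prpf19 had a call against day 0, on 1 of its 5 probe sets. On array A 2 others of the 5 were called lower late against early treated days, at -0.18 and -0.17 (log2). Prpf19 is a ubiquitin ligase of the complex that steadies the catalytic spliceosome. On array B 1456531_x_at read 762, 858 and 694 at day 0, 746, 698 and 461 at day 1, and 444, 590 and 466 at day 35. Days 2, 3 and 27 held between 483 and 642, all below day 0. Its change at day 35 was -0.63 (log2, SE 0.15, adjusted p = 0.0283 by limma), and the other 4 probe sets stood between -0.16 and 0.18. The call ended under quantile scaling, with no filter, without the 3 samples that stood apart on array A, without the first or the second day 0 sample and without the first or the third day 35 sample.

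The remaining Prpf genes were uncalled at every day. At day 35 Prpf8, the scaffold of the active site, stood at 0.14 (log2), Prpf6 and Prpf31, which bridge the U5 and U4/U6 particles, at 0.14 and 0.09, Prpf3 at 0.00, and Prpf4, its partner on U4/U6, at -0.14 and 0.19. Prpf18, which acts in the second step of splicing, stood at -0.26 on array B (SE 0.10, adjusted p = 0.165 by limma).

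**Figure D2:**
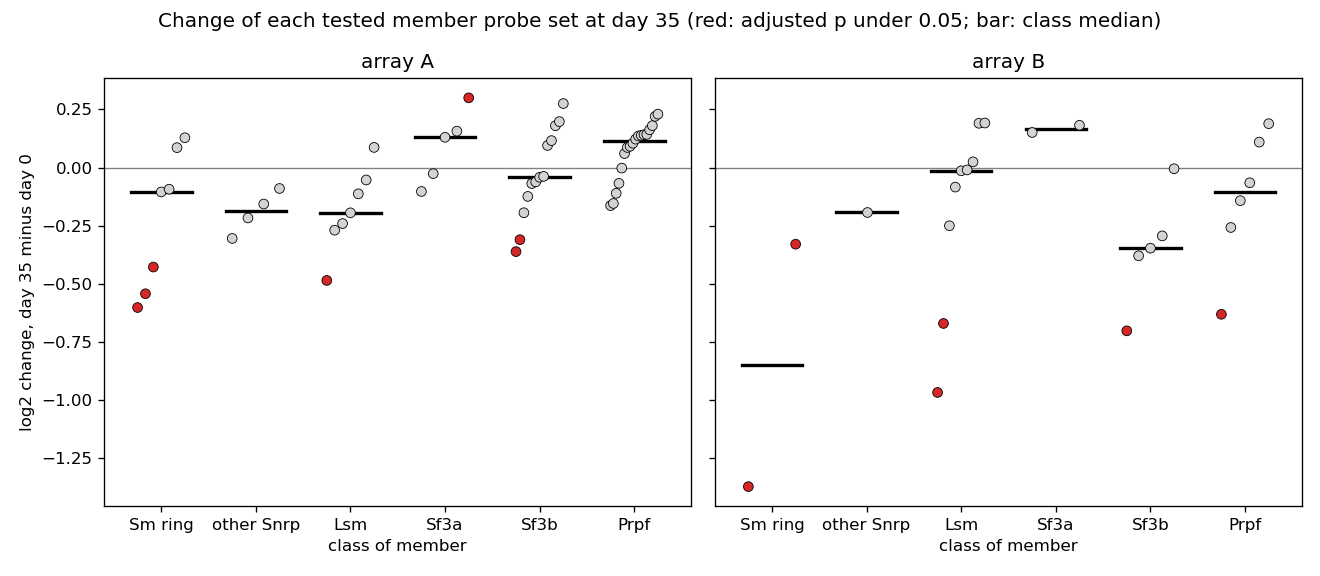
Log2 change from day 0 to day 35 of every tested member probe set, by class and array, with called probe sets in red and the class median as a bar. On array A the 3 lowest Sm ring probe sets lie apart from the Prpf points, and on array B the lowest points belong to Snrpf, Lsm6, Sf3b5 and Prpf19.

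On array A the Sm and LSm messages stood lower than the SF3 and PRPF messages late in treatment. The median change of the 18 Snrp and Lsm probe sets was -0.16 at day 27 and -0.18 at day 35 (log2), against 0.04 and 0.09 for the 36 Sf3 and Prpf probe sets and 0.05 and 0.03 over all tested probe sets. Lower calls were 3 of 18 and 4 of 18 in the first class against 0 of 36 and 2 of 36 in the second. Over all tested probe sets of array A, 2.6% and 5.58% were lower on those days. The 4 were Snrpe, Lsm2 and both probe sets of Snrpg, and the 2 were both of Sf3b6. The difference between the class medians, -0.20 and -0.27, kept its sign under every alternative run. The 18 include the Lsm2 and Snrpa1 probe sets, which passed the filter through the earlier groups alone, and with no filter the day 35 difference was -0.18. On array B the class medians did not part at day 35: they were -0.14 for 12 Snrp and Lsm and -0.14 for 13 Sf3 and Prpf probe sets, against -0.01 over all. Lower calls there were 4 of 12 against 2 of 13 at day 35, where 2.88% of all tested probe sets were lower. For late minus early treated days they were 4 of 12 against 1 of 13, with 1.42% lower over all. In both comparisons the 4 were Snrpf, Snrpb and both tested probe sets of Lsm6. The Snrpb call was lost in 7 of 18 alternatives at day 35 and in 16 of 27 for late minus early. The medians differed by -0.08 for late minus early, with the same sign in all alternatives. On array B the median at day 35 was -0.01 for the 9 Lsm probe sets and -0.35 for the 5 Sf3b probe sets. Those 5 were Sf3b1 at -0.29, Sf3b2 at -0.35 and -0.01, Sf3b3 at -0.38 and Sf3b5 at -0.70. Why the class medians parted on array A only was not tested. The sign of the small class difference on array B changed with the scaling, the filter and the samples used. Classes were set by symbol, protein and message lengths were not used here, and the class difference has no test.

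Sample by sample on array A, the mean of the 18 Snrp and Lsm probe sets, each set against its day 0 mean, lay between 0.00 and 0.10 (log2) in the 6 samples of days 1 and 2. At day 3 it was 0.02, 0.09 and, in the third sample, -0.13. Day 27 gave -0.19, -0.06 and -0.20, and day 35 gave -0.13, -0.24 and -0.23. Thus all 6 late samples lay below the day 0 mean. The mean of the Sf3 and Prpf probe sets stayed between -0.03 and 0.08 in every array A sample. On array B, however, the Sf3 and Prpf mean lay below the day 0 mean in every treated sample. It was -0.21 to -0.01 at day 1 and -0.21 to -0.09 at day 35, where the Snrp and Lsm mean was -0.35 to -0.20. Of the 3 samples that stood apart, the day 3 one was low in the Snrp and Lsm mean of array A. The day 27 one was the least low of its group, while the day 35 one lay next to another of its group. With all 3 left out, the called members on array A were 8 lower and 2 higher at day 27 and 7 lower and 4 higher at day 35, out of 54, against 11.7% and 15.0% of all tested probe sets.

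**Figure D3:**
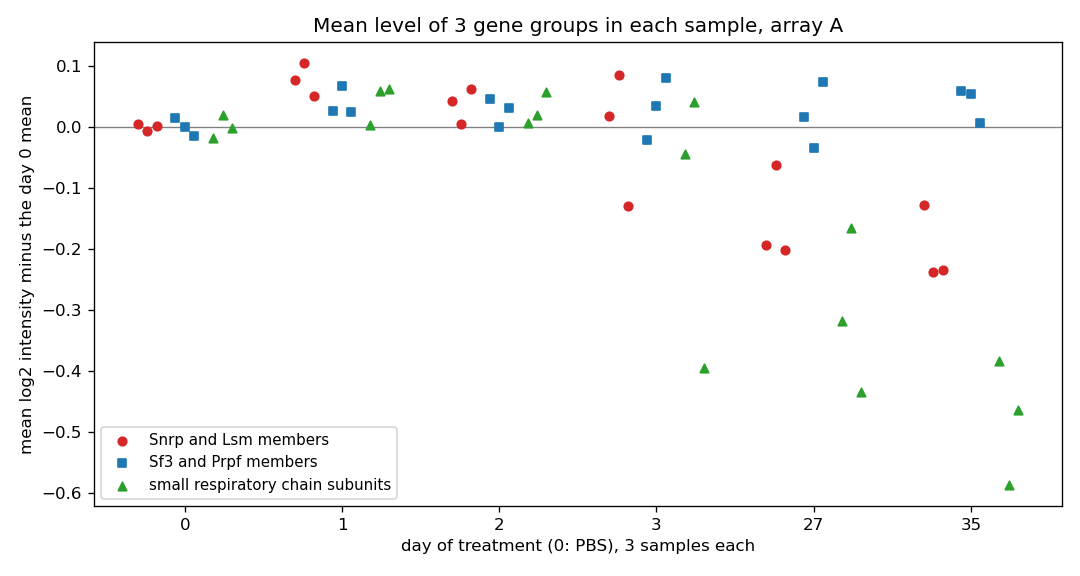
Mean log2 intensity against the day 0 mean in each array A sample, for Snrp and Lsm members, Sf3 and Prpf members, and small respiratory chain subunits (3 samples a day). Late samples lie below 0 for the first and the last of these groups, and the third day 3 sample is low in both.

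Genes of the respiratory chain and the ribosome also stood lower late. Over 45 genes for small subunits of the respiratory chain, the mean change was -0.04, 0.04 and -0.40 (log2) in the 3 day 3 samples, -0.32, -0.17 and -0.43 at day 27, and -0.38, -0.59 and -0.46 at day 35. Of these 45 genes 10 were lower at day 27 and 37 at day 35, and of 40 cytosolic ribosomal protein genes 8 and 13. Over all tested probe sets of array A, 2.6% and 5.58% were lower on those days. Late against early treated days 41 of the 45 and 21 of the 40 were lower, against 10.4%. The signal ratio of the 3′ to the 5′ control probe sets of Actb, a measure of RNA integrity, was 0.98 to 1.04 at day 0 and 1.06 to 1.14 at days 27 and 35 on array A, and 1.03 to 1.05 and 1.13 to 1.23 on array B. For Gapdh the late ratios, 0.979 to 1.08 and 1.01 to 1.13, overlapped day 0 on both arrays. Summed intensity of 20 proliferation genes was 13670 to 15298 at day 0, 12988 to 14307 at day 27 and 13807 to 15529 at day 35. Of these 20, 0 were called against day 0 on either late day. Set late against early treated days, 5 of the 20 were lower and 0 higher, against 10.4% of all tested probe sets of array A lower. Sums of 12 T cell markers were 11002 to 11487 at day 0 and 10654 to 11236 at day 35, those of 9 B cell markers 16506 to 17488 and 16210 to 17395, those of 6 plasma cell markers 12696 to 14877 and 15839 to 17641, and those of 8 fat cell markers 21133 to 23087 and 15136 to 19385. Sums of 11 macrophage markers were 22105 to 22483 and 20790 to 24368, those of 11 matrix and stroma markers 16248 to 17825 and 19396 to 19563, and those of 4 red cell markers 1219 to 1476 and 1047 to 1288. At day 35 lower calls were made for 1 of 11 B cell, 2 of 8 fat cell, 1 of 12 macrophage and 1 of 4 red cell markers, and higher calls for 1 of 12 T cell, 1 of 7 plasma cell, 1 of 12 macrophage and 5 of 11 matrix and stroma markers. For comparison, 5.58% of all tested probe sets of array A were lower at day 35 and 1.77% higher. A count of 1 in lists this short therefore says little. The part of these measures in the member changes was not tested.

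Most other spliceosome genes had no call. Of 43 tested genes among 46 further components, 4 were lower at day 27 (9.3%) and 6 at day 35 (14.0%), with none higher and a day 35 median of 0.00 (log2). Over all tested probe sets of array A, which measured 39 of the 43, 2.6% and 5.58% were lower on those days. Late against early treated days 11 were lower (25.6%, against 10.4%) and 1, Srrm1, was higher. The 6 were Cwc15 (-0.38), Bcas2 (-0.33) and Bud31 (-0.25) of the catalytic complex, Snrnp27 (-0.31) of the tri-snRNP, Pqbp1 (-0.30), a partner of the U5 particle, and Puf60 (-0.24), which aids recognition of the 3′ splice site. Of 15 tested genes among 19 that assemble and carry snRNPs, none was called against day 0 and 2 were lower late against early. Strap, of the SMN complex that loads the Sm ring onto RNA, had the smallest p at day 35 (-0.23, SE 0.09, adjusted p = 0.128 by limma).

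**Figure D4:**
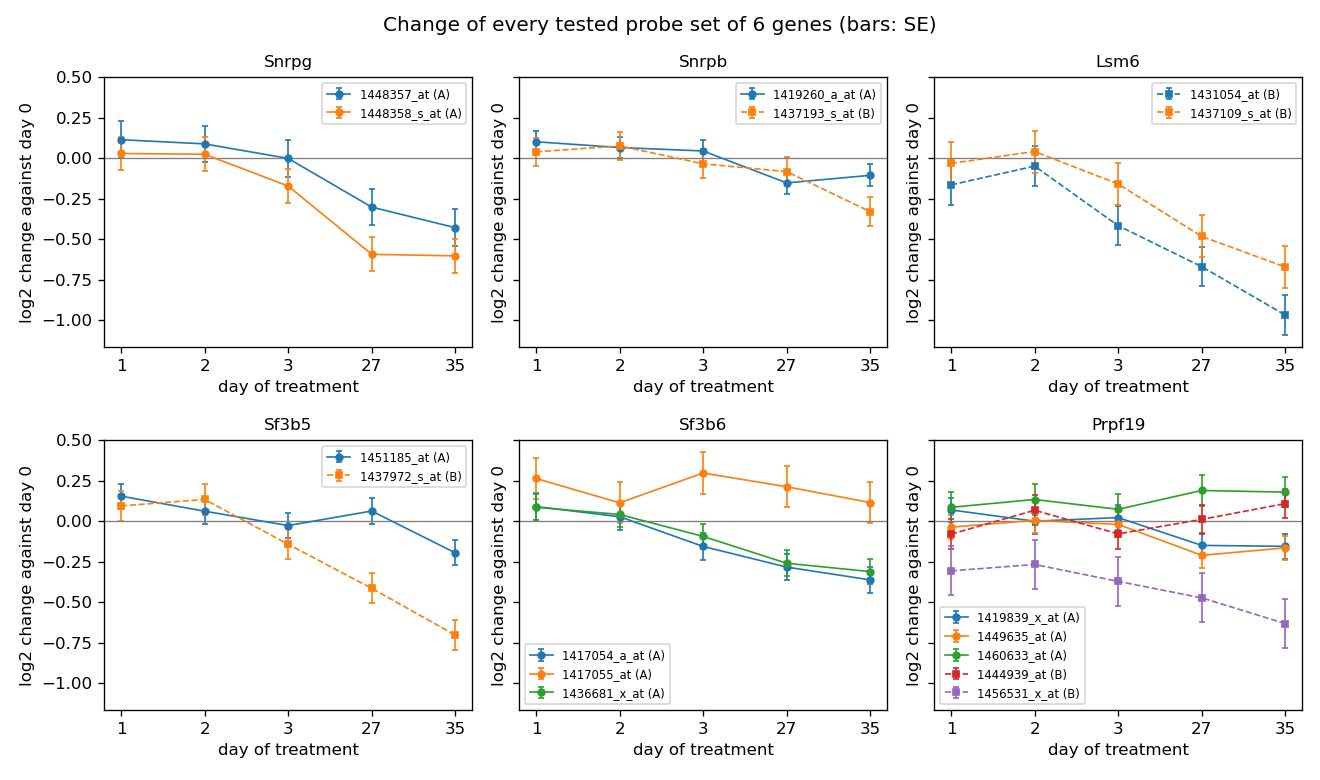
Log2 change against day 0 by day for every tested probe set of 6 genes, with SE bars (solid lines array A, dashed lines array B). Both probe sets of Snrpg and of Lsm6 go down together, whereas 1 of 3 for Sf3b6 and 4 of 5 for Prpf19 had no call against day 0. Of those 4 for Prpf19, 2 were called lower late against early treated days.

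Probe sets of 1 gene often differed. Of the 22 member genes with several tested probe sets, 11 had changes of both signs at day 35, 5 had some but not all probe sets called, and 2, Snrpg and Lsm6, had all called lower. Snrpe, Snrpf and Lsm2 rest on 1 tested probe set each. Probe sets whose ID ends in _s_at or _x_at can match several transcripts or genes, and pseudogene copies of Snrp and Lsm genes are common, so values from them are uncertain. Without them the day 35 calls were 3 on array A (Snrpg, Lsm2 and Sf3b6) and 2 on array B (Snrpf and Lsm6). That is 6.67% of 45 members against 6.64% of all tested probe sets on array A, no more than the background, and 10.5% of 19 against 2.72% on array B.

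The late samples were also set against the early treated ones, a comparison without day 0. The mean of days 27 and 35 (6 samples) minus that of days 1, 2 and 3 (9 samples) gave 14 of 54 members lower on array A (25.9%, against 15.4% of all tested probe sets called and 10.4% lower) and 5 of 25 on array B (20%, against 1.66% called and 1.42% lower). On array A 10 of 18 Snrp and Lsm probe sets were lower and 4 of 36 Sf3 and Prpf probe sets, with medians of -0.19 and 0.01 (log2) and 0.02 over all. The 10 include the Lsm2 probe set, which passed the filter on dim probe sets through the earlier groups alone. The lower genes include Lsm4, Lsm8, Lsm10 and Snrpb2, uncalled against day 0. Between day 27 and day 35 no member and no other probe set was called on either array by limma, with 4 members on array A (7.41%, against 6.66% of all) and 4 on array B (16%, against 2.83%) at an unadjusted p under 0.05.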

How the data were processed

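The values are linear probe set intensities in the authors' deposited tables, 1 for each array, with 18 arrays a table. How the authors scaled the deposited intensities, and with which software, is not given here. Probe sets were named from the platform annotation. The members and gene lists were chosen with earlier results of these data known.

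Intensities were floored at the 20th percentile of their table before taking log2. A probe set was kept if 3 or more of the 18 arrays exceeded the table median, which left 12230 on array A and 12515 on array B. The 6 groups of a table were fitted together with limma 3.58.1 in R 4.3.3 (eBayes with trend), and p-values were adjusted by Benjamini-Hochberg within table and contrast and called at 0.05. The fit was tested on simulated data. Tables were never compared with each other. Arrays give no read depth, so the number of samples, 3 a group, limits the precision.

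Named are the core members with their probe sets, the called member probe sets (up to 8 falls and 8 rises a contrast and table) and, of the other lists, those with the smallest p at day 35, plus Bud31 and Puf60, named after their values were seen to complete a count of called genes. The samples' replicate numbers were not used to pair them. Alternatives covered scaling, floor, filter, variance model, array weights, the samples fitted and the choice of probe sets. A planned split by protein length was not run, since no protein sequences were used here. The promoter motifs were added after seeing the values.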

Additional observations from a re-analysis of the deposited data

Results flagged for a closer look

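The level differed between the late and the early days of treatment for 19 of the 79 tested member probe sets by limma (days 27 and 35, 6 samples, against days 1, 2 and 3, 9 samples, adjusted p under 0.05). These were 14 of 54 on array A (25.9%, against 15.4% of all tested probe sets) and 5 of 25 on array B (20%, against 1.66%). With no saline samples on those days, time and treatment cannot be told apart here. All 19 were lower late, on the log2 scale. Most calls over all tested probe sets were lower too, 1271 of 1880 on array A and 178 of 208 on array B. In the Sm ring the differences were -0.96 for Snrpf, -0.57 for Snrpe, -0.56 and -0.43 for the 2 probe sets of Snrpg, and -0.20 on array A and -0.23 on array B for Snrpb. The array B value for Snrpb (adjusted p = 0.0432) lost its call in 16 of 27 alternatives. Calls were also lost in 4 of 26 for the Snrpb2 value of -0.20, in 3 of 27 for Lsm10, and for Prpf19 in 1 of 26 (-0.18) and 3 of 27 (-0.17). Snrpb2, of the U2 particle, gave -0.33 and -0.20. Among LSm genes the values were -0.61 and -0.53 for Lsm6, -0.42 for Lsm2, -0.31 for Lsm8, -0.26 for Lsm4 and -0.19 for Lsm10. The Lsm2 probe set passed the filter on dim probe sets through the earlier groups alone, so its call here is not independent of the filter. Sf3b5 gave -0.59 on array B, Sf3b6 -0.31 and -0.30, and Prpf19 -0.18 and -0.17 on array A. The Prpf19 probe set called at day 35 is not among them, at -0.24 (adjusted p = 0.27).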

How the results depend on the processing

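Beside the values above, these counts of called members moved by over 1.5 times. On array A, day 27 (3) was 7 with a common median, 8 with array weights and 10 without the 3 samples that stood apart on array A. Without _x_at and _s_at probe sets it was 1 of 45 (2.22%, against 2.78% of all tested probe sets). Day 35 (7) was 11, 14 (10 lower, 4 higher), 11 and 3. With the brightest probe set per gene it was 4 of 34, a share of 11.8% against 13.0% of all 54, with 7.36% over all tested probe sets. Late minus early (14) was 26 (19 lower, 7 higher) with array weights and 27 (18 lower, 9 higher) without those samples. With the brightest probe sets it was 8 of 34, a share of 23.5% against 25.9% of all 54, with 15.4% over all tested probe sets. On array B, day 1 (0) was 1 of 25 with array weights (4%, against 1.93% of all tested probe sets). Day 27 (1) was 0 of 33 with no filter (0.0755% over all tested probe sets) and 0 of 17 with the brightest probe sets (0.328%). It was 4 of 25 (16%) with array weights, without those samples and with the replicate block. The shares over all tested probe sets in these were 2.52%, 0.312% and 1.76%. Without _x_at and _s_at probe sets, day 35 (6) and late minus early (5) were both 2 of 19 (10.5%, against 2.72% and 1.35% over all). The share called over all tested probe sets moved too. On array A it was 5.91% and 8.55% with a common median and 13.1%, 19.0% and 31.5% with array weights, where members gave 14.8%, 25.9% and 48.1%. Without those samples it was 11.7%, 15.0% and 26.2%, against 18.5%, 20.4% and 50% of members. Leaving out 1 sample gave 2 to 6, 2 to 8 and 10 to 19 on array A and 0 to 4, 3 to 6 and 4 to 6 on array B at day 27, day 35 and late minus early.

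The Snrp and Lsm median minus the Sf3 and Prpf median on array A was -0.18 at day 35 with no filter, and over single samples left out -0.24 to -0.12, -0.30 to -0.21 and -0.22 to -0.19 in the same 3 comparisons. On array B it was 0.02 at day 27, and -0.0658 with the filter on all arrays, -0.0298 without the samples that stood apart and 0.19 with the brightest probe sets. At day 35 it was 0.00, and -0.0167 with quantile scaling, -0.0600 without those samples, -0.0486 without _x_at and _s_at probe sets and 0.19 with the brightest. Leaving out 1 sample gave -0.0589 to 0.0876, -0.0901 to 0.0828 and, for late minus early, -0.10 to -0.06. The cause of these moves was not tested.

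The labels do not say what a replicate number marks, and not every same-numbered pair deviated together, so samples were not paired. Same-numbered samples' deviations correlated between -0.49 and 0.48 on array A and between -0.41 and 0.69 on array B, and 9 and 16 of 18 samples correlated best with their own number. On array B the median was 0.37 for the same number and -0.10 for other numbers, a hint from the data of a shared factor. The block moved no other count by over 1.5 times. Array weights were estimated gene by gene after the default method did not converge on array B, a choice made after seeing the data. The cuts by protein length were not run. Signal over background limits the 24 untested members, and 3 samples a group limits all.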
